A study of Homo sapiens with 24 samples.

Results

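HCT116 is an established human colorectal carcinoma cell line with an activating mutation in 1 of its CTNNB1 alleles. The libraries described here come from wild-type (WT) clones 4 and 6 of this line, which both kept CTNNB1, the gene of β-CATENIN. They were chosen by their labels alone, as the libraries titled WT 4A, WT 4B, WT 6A and WT 6B, which makes 4 of the 24 libraries of the study. The study sequenced 2 WT clones and 2 knockout (KO) clones each of HCT116, HT29 and SW480 cells in rounds A and B, and it used the WT clones as controls. The HCT116 KO clones 44 and 47 lack exon 7 of CTNNB1 on both alleles after CRISPR/Cas9 editing. All cells were grown in the same medium without further treatment. Each group is 1 clone with 2 libraries, so that the comparison concerns these clones and cannot say how WT clones of HCT116 differ in general.

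A clone grows from 1 cell and inherits whatever that cell carried, including its mutations, its chromosome copies and the DNA methylation of its genes. In WNT signaling, β-CATENIN enters the nucleus, binds TCF/LEF factors and drives target genes, among them several that dampen the pathway.

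Values are normalised read counts, that is, reads per gene divided by 1 size factor per library. Between 27257568 and 29068378 reads fell on genes in the 4 libraries. The root mean square distance between libraries, on the log2 scale over the tested genes, was 0.401 between the rounds of WT 4 and 0.433 between those of WT 6. It ran from 0.524 to 0.655 between WT 4 and WT 6 and from 0.700 to 0.923 between a WT library and a KO library of HCT116. Colorectal epithelial markers (EPCAM, KRT8, KRT18, KRT19 and CDH1) summed to between 130753 and 160423 in WT 4 and between 137448 and 145004 in WT 6, and 0 of the 5 were called. The 5 immune markers summed to at most 11.4 in any of the 4 libraries and the 3 measured endothelial markers to at most 19, and 2 of the 5 immune markers were at 0 throughout. The 6 fibroblast markers, 3 of them under 10 in each library, summed to between 289 and 339 in WT 4 and between 366 and 443 in WT 6, and their part in the differences was not tested.

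Transcript levels in the clones differed at 230 of 15535 tested genes (1.48%), with 119 higher in WT 4 (0.766%) and 111 higher in WT 6 (0.715%). A gene was called at an adjusted p under 0.05 in limma and an absolute log2 difference over 1. Counts of called genes in the lists below are to be read beside these shares, and no list was tested as a set. Differences are given with their SE from this fit, with 2 libraries per clone. Its estimate of the spread comes from all 8 HCT116 libraries, those of the KO clones included. In bulk RNA, fewer cells with a transcript and less of it per cell cannot be told apart. The median difference of all tested genes was −0.02, WT 4 minus WT 6, and the middle of the distribution ran from −0.23 to 0.22. At 196 of the 230 genes the difference was over 1 in the same direction in round A and in round B, taken singly. Over all tested genes this held at 379 (2.44%). The calls were made from these same rounds, so that their agreement is largely built in. The clones did not overlap at any of the 230 genes, which the test all but requires. Differences of more than 2 on the log2 scale were seen at 42 genes higher in WT 4 and 25 higher in WT 6. With the round as a replicate block, limma called 438 genes (2.82%), with 262 higher in WT 4 and 176 higher in WT 6, and all 230 were among them. In the fit without the block, fewer than the 230 genes were called when WT 4A, WT 4B, WT 6A or WT 6B was left out, which leaves 1 library in a clone.

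**Figure D1:**
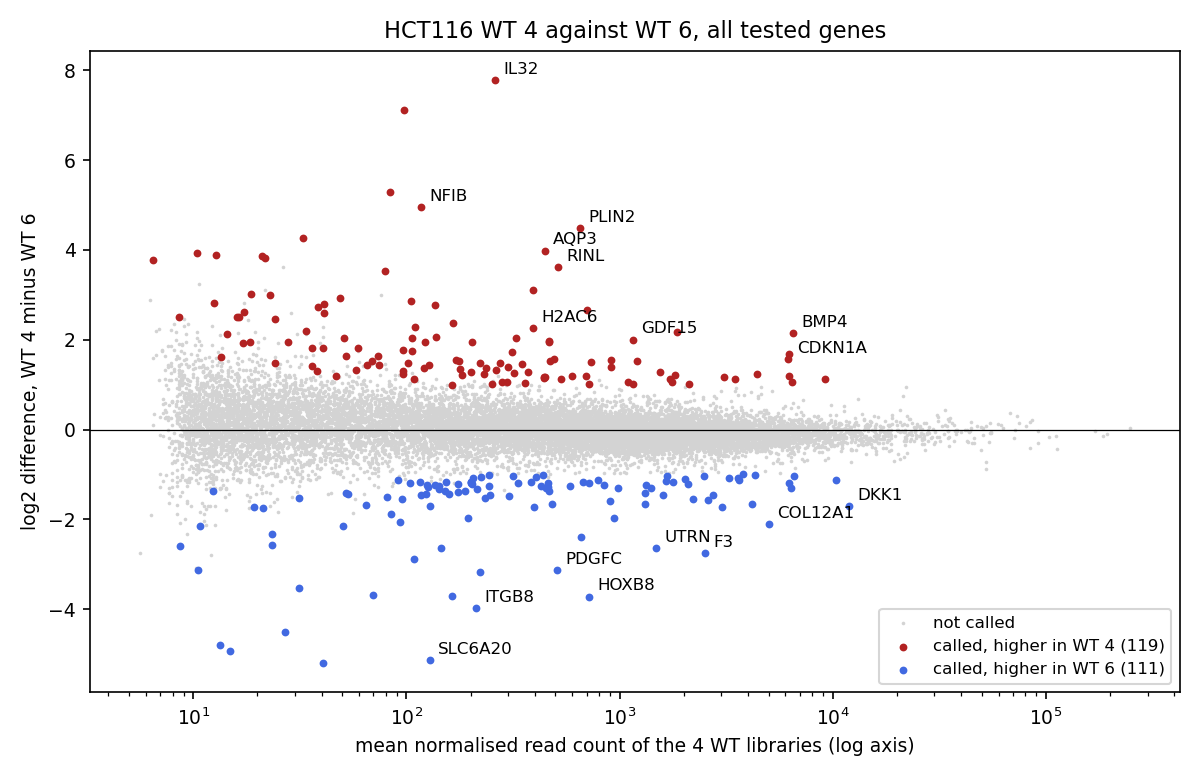
Each point is 1 of the 15535 tested genes, with the mean normalised read count of the 4 WT libraries on the horizontal log axis and the log2 difference, WT 4 minus WT 6, on the vertical axis. Red marks the 119 genes called higher in WT 4, blue the 111 called higher in WT 6 and grey the others, and the calls in both directions are spread over low and high counts.

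The gene that sets the genotypes did not pass the test between the WT clones. CTNNB1 stood at 12410.2 and 12800.1 in WT 4 and 10512 and 11952 in WT 6 (log2 difference 0.17 ± 0.14 (SE), adjusted p = 0.568). The KO clones held 187 to 255, far below either WT clone.

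IL32, which encodes a proinflammatory cytokine, showed the largest difference among the genes with a mean of at least 100. Its values were 577 and 467 in WT 4 and 1.85 and 0.952 in WT 6 (log2 difference 7.78 ± 0.32 (SE), adjusted p = 2.32e-06). The 3 reads of WT 6 against 1132 of WT 4 gave a ratio of 392, with a 95% counting interval from 134 to 1904. KO clones split as well, with 408 and 327 in KO 44 and 3.21 and 3.81 in KO 47. NFIB, a transcription factor of the nuclear factor I family, held 203 and 249.7 in WT 4 and 12.9 and 2.86 in WT 6, which was a ratio of 29.9 in reads with an interval from 18.5 to 51.8, and KO libraries held 347 to 563. For PLIN2, a coat protein of lipid droplets, the values were 1359.5 and 1135 in WT 4 and 52.7 and 56.2 in WT 6 (log2 difference 4.49 ± 0.19 (SE), adjusted p = 2.32e-06), and both KO clones lay at the level of WT 4 with 971 to 1366. At NFIB and PLIN2 WT 6 thus lay below all other HCT116 clones.

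Other genes were highest in WT 4. AQP3, a channel for water and glycerol, reached 1015 and 654 in WT 4 and 78.5 and 32.4 in WT 6 (log2 difference 3.99 ± 0.36 (SE), adjusted p = 0.000407), and the KO libraries lay between the clones at 121 to 284. RINL, a regulator of Rab GTPases, stood at 957 and 937 in WT 4 and 82.2 and 70.4 in WT 6, a log2 difference of 3.62. PKIB, which inhibits protein kinase A, held 1289.8 and 1143 in WT 4 and 209.8 and 173 in WT 6, a difference of 2.66, with KO libraries in between at 292 to 699. COL17A1, a collagen of the hemidesmosome, held 246 and 312 in WT 4 and 56.4 and 48.5 in WT 6, and the KO values of 62.1 to 96.1 were near those of WT 6. Thus WT 4 held the highest values of the 4 HCT116 clones at AQP3, RINL, PKIB and COL17A1. The adhesion receptor gene ADGRF1 (3.10) and PROM2 (2.87), a relative of prominin 1, were also higher in WT 4 than in WT 6, and still higher in the KO libraries, which held 1979.8 to 2768 and 278 to 906. VSNL1, a neuronal calcium sensor, differed by 2.78.

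Among genes with a mean of at least 100, the largest excess in WT 6 belonged to SLC6A20, a transporter of proline, with 5.50 and 6.50 in WT 4 and 190.3 and 313 in WT 6 (log2 difference −5.13 ± 0.40 (SE), adjusted p = 0.000174). ITGB8, an integrin chain that takes part in the activation of TGF-β, held 24.8 and 24.1 in WT 4 and 442 and 358 in WT 6 (log2 difference −3.97 ± 0.29 (SE), adjusted p = 9.44e-05). KO 44 resembled WT 6 at this gene and KO 47 lay lower, with 341 and 575 in KO 44 and 49.2 and 72.3 in KO 47. PDGFC, a growth factor of the PDGF family, stood at 125 and 83.5 in WT 4 and 991 and 827 in WT 6, a difference of −3.14. F3 encodes tissue factor, which starts blood coagulation, and held 782 and 523 in WT 4 and 5239 and 3528 in WT 6 (log2 difference −2.75 ± 0.24 (SE), adjusted p = 0.000324). The KO values of F3, 800.3 to 1523, lay between the clones.

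UTRN, the autosomal relative of dystrophin, stood at 319 and 519 in WT 4 and 2806 and 2290.4 in WT 6, a difference of −2.64. COL12A1, a collagen that binds to fibrils, reached 1627 and 2148 in WT 4 and 6781 and 9514 in WT 6, a difference of −2.10. C1orf116 differed by −3.17 and CLMP, a junctional adhesion molecule, by −2.65, and WT 4 was below all 6 other HCT116 libraries at both genes. H19, an imprinted long noncoding RNA, held 29.4 and 20.4 in WT 4 and 237 and 147 in WT 6 (difference −2.88). Calls were lost for H19 without any 1 of the 4 WT libraries (adjusted p from 0.0542 to 0.139), and COL12A1 without WT 6B (adjusted p = 0.0727), and for H19 with all 24 libraries (adjusted p = 0.142).

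**Figure D2:**
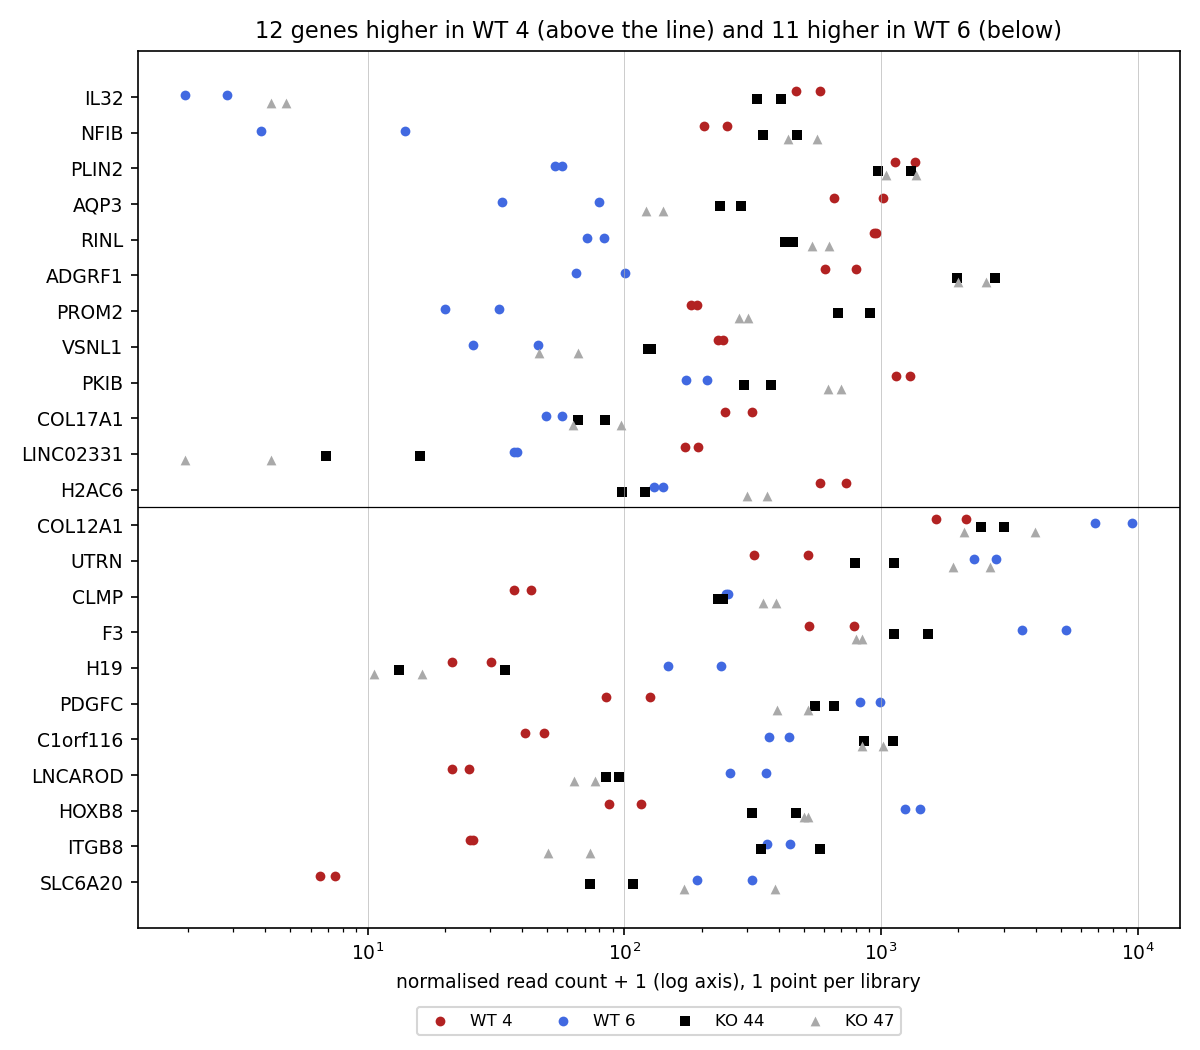
Each row is a gene, with the normalised read count plus 1 of every HCT116 library on a log axis. Rows are calls with a mean of at least 100, and the 12 above the line are the largest of these differences higher in WT 4 (red) and the 11 below the line are among those higher in WT 6 (blue), and the KO libraries (grey and black) lie on either side depending on the gene.

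At 14 of the 230 genes, 1 of the clones held 3 reads or fewer in both libraries. They include DCLK1 and TCL6, at 0 reads in both WT 4 libraries, against 63 and 57 reads in WT 6, which is at least 10.1-fold and 9.15-fold higher at a floor of 3 reads per library. STXBP6, a binding partner of syntaxin, held 213.7 and 174 in WT 4 and 0 and 0.952 in WT 6, or 421 reads against 1, a ratio of 437 with an interval from 78.1 to 17315. SATB1, which organizes chromatin, held 60.5 and 65.0 in WT 4 and 1.85 and 2.86 in WT 6. These 4 were singled out after their values were seen, since their means were under 100. Calls were lost for DCLK1 without any 1 of the 4 WT libraries (adjusted p from 0.0664 to 0.156).

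Among 23 tested WNT feedback and target genes, 3 were called higher in WT 4 and 2 higher in WT 6, and their median of −0.04 was close to that of all genes. BMP4, a secreted BMP ligand and target of β-CATENIN in colorectal cancer cells, held 10661 and 10608 in WT 4 and 2235 and 2557 in WT 6 (log2 difference 2.15 ± 0.22 (SE), adjusted p = 0.000827). RNF43, a ubiquitin ligase that removes WNT receptors, held 2195 and 2537 in WT 4 and 1082 and 1089 in WT 6 (difference 1.12, adjusted p = 0.0151). SOX4, a transcription factor, held 3962 and 4615 in WT 4 and 1768 and 2032 in WT 6 (difference 1.17). These 3 genes were higher in WT 4, and in the KO clones they were lower than in either WT clone, at 162 to 295, 37.3 to 74.2 and 533 to 739.

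DKK1, a secreted inhibitor of WNT co-receptors, went the other way, with 6206 and 5036 in WT 4 and 19633 and 16774 in WT 6 (log2 difference −1.70 ± 0.15 (SE), adjusted p = 0.0004). TERT, the catalytic subunit of telomerase, held 76.1 and 56.6 in WT 4 and 188 and 171 in WT 6 (difference −1.44). The KO libraries, which lack β-CATENIN, held 13542 to 21289 at DKK1, around the values of WT 6. At TERT they held 43.8 to 90.4, around the values of WT 4. Widely used readouts of the pathway did not pass the test, among them AXIN2 (difference 0.30, adjusted p = 0.746), NKD1 (−0.24, adjusted p = 0.498) and NOTUM (−0.01, adjusted p = 0.993). CCND1 (−0.62) and MYC (−0.46) were lower in WT 4 at adjusted p = 0.0222 and 0.0457 in limma, but under the limit of 1. MYC missed the threshold in edgeR with TMM (adjusted p = 0.0591) and met it in DESeq2 (0.0151), and CCND1 met it in both (0.0286 and 0.000632). Of 24 WNT ligands and receptors only the receptor gene FZD1 was called (1.06), and of 21 genes of the β-CATENIN complex 0 were called in limma, edgeR or DESeq2, and limma gave 2 of them an unadjusted p under 0.05. The test was no longer passed by RNF43 without any 1 of the 4 WT libraries (adjusted p from 0.0781 to 0.154), TERT without WT 4B, WT 6A or WT 6B (adjusted p from 0.0948 to 0.106), SOX4 without WT 6A (adjusted p = 0.0668), and FZD1 without WT 4A, WT 4B or WT 6B (adjusted p from 0.051 to 0.104), nor by TERT with all 24 libraries (adjusted p = 0.07).

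CDKN1A and GDF15 were both higher in WT 4. CDKN1A, which encodes the cell cycle inhibitor p21, held 9316 and 9218 in WT 4 and 3230.3 and 2997 in WT 6 (log2 difference 1.57 ± 0.11 (SE), adjusted p = 7.09e-05). GDF15, a stress-induced cytokine, held 2161 and 1553 in WT 4 and 518 and 403 in WT 6 (log2 difference 2.0 ± 0.19 (SE), adjusted p = 0.000603). KO clones did not follow one pattern, since CDKN1A ran from 4717 to 7906 while GDF15 held 2199 and 2794 in KO 44 and 313 and 326 in KO 47.

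Cell cycle genes showed small differences. Of 27 G1/S genes 25 and of 25 G2/M genes 20 had a negative difference, where 52.7% of all tested genes did, and their medians were −0.09 and −0.30. Limma, edgeR and DESeq2 called 0 of them, and limma gave 1 G1/S gene and 14 G2/M genes an unadjusted p under 0.05. MKI67, a marker of cycling cells, held 6574 and 12287 in WT 4 and 12685 and 17230.4 in WT 6 (difference −0.72, adjusted p = 0.243), and 0.00448 with the replicate block. CCNB1, the mitotic cyclin B1, held 14086 and 12444 in WT 4 and 11981 and 12328 in WT 6 and did not pass the test.

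Replication-dependent histone genes were the list with the highest median, 1.58 over 12 tested genes. Of these, 7 were called, and all 7 were higher in WT 4, where 0.766% of all tested genes were called higher in WT 4. These genes supply histones during DNA synthesis, and most of their transcripts end in a stem loop instead of a poly(A) tail, so that the oligo-dT capture used here sampled the polyadenylated fraction. When all histone genes of these families were taken in place of the chosen list, 23 were tested, 20 were positive, 9 were called higher in WT 4 and 0 higher in WT 6, with a median of 1.16. With the replicate block 12 were called higher in WT 4, the further ones being H2BC4 (difference 1.62, adjusted p = 0.0144), H2BC26 (1.66, adjusted p = 0.0182) and H4C5 (1.66, adjusted p = 0.0194). Summed over the 61 genes of the annotation, the clones did not overlap, with 3640 and 4452 in WT 4 and 1405 and 1487 in WT 6. The KO clones were at 1082 and 1106 in KO 44 and 3090 and 3220 in KO 47.

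H2AC6, a histone H2A gene, held 576 and 728 in WT 4 and 129 and 139.9 in WT 6 (log2 difference 2.26 ± 0.19 (SE), adjusted p = 0.000324). H1-2, a linker histone gene, held 649 and 832 in WT 4 and 143 and 242 in WT 6 (difference 1.97). For the histone H2B genes H2BC5 and H2BC12 the values were 278 and 371 in WT 4 and 96.1 and 70.4 in WT 6, and 617 and 779 in WT 4 and 243 and 238 in WT 6. At these genes KO 47 was above KO 44 in every library, at H2AC6 with 97.3 and 119.6 in KO 44 and 299 and 359 in KO 47. Calls of H3C6 (1.82), H3C10 (1.64) and H2BC21 (1.32) were lost without any 1 of the 4 WT libraries, with adjusted p of up to 0.284. The call was also lost for H2BC21 with a pseudocount of 0.1 (adjusted p = 0.0508) and with no filter (adjusted p = 0.0577). Other members did not pass the test, among them H2AC11, which held 81.6 and 93.7 in WT 4 and 53.6 and 73.3 in WT 6 (adjusted p = 0.437), and H1-4, with a difference of −1.22 (adjusted p = 0.262). Histone genes of a family are near-identical, and reads that fit several of them may have been dropped or given to another member in counting.

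The promoters of 4 called histone genes are shown because their genes differed together. They are RefSeq sequences on GRCh38.p14, from 250 bases before the start to 50 after it, on the strand of the gene, and where 2 starts are listed (H2BC5 and H2BC12) the first by position was taken. H2AC6 is at chr6:26123922-26124221 (plus strand), H2BC12 at chr6:27146806-27147105 (minus), H2BC5 at chr6:26157871-26158170 (plus) and H1-2 at chr6:26056421-26056720 (minus). Capitals mark the octamer ATTTGCAT, the CCAAT box (CCAAT) and the TATA motif (TATAAA) on either strand, and in H2BC12 a TATA match on each strand overlap.
H2AC6: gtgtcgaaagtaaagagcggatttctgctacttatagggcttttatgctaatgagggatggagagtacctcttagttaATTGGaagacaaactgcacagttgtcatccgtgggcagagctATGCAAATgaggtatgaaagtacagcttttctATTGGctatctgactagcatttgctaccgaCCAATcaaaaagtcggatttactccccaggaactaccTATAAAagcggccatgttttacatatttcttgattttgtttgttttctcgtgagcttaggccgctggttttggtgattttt
H2BC12: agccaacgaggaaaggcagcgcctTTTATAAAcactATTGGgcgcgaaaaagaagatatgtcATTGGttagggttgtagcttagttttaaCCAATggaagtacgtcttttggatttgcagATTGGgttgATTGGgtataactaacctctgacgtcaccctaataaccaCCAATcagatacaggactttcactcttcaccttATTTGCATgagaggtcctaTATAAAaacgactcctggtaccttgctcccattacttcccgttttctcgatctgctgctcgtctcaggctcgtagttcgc
H2BC5: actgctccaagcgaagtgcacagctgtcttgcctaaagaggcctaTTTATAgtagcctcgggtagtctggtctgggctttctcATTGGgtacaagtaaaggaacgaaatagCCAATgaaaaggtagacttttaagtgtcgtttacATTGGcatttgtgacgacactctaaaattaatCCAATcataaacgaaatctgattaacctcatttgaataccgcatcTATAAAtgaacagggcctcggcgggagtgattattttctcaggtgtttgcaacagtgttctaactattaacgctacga
H1-2: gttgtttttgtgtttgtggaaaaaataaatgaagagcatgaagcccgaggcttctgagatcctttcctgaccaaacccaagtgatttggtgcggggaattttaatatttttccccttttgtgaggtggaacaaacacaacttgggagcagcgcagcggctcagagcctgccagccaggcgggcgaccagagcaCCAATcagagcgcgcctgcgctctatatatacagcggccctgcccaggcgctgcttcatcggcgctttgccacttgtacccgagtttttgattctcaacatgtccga
CCAAT was found at all 9 called histone genes and at 11 of the 14 tested genes that were not called, and at 34.6% of all promoters. The octamer was found at 3 of the 9 and 8 of the 14, against 1.77% of all promoters, and TATAAA at 6 and 10, against 11.5%. A histone gene was counted when any of its listed promoters held the motif, while the percentages are shares of single promoters.

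HOX genes, which specify position along the body axis, differed in the HOXB cluster. Of 26 tested HOX genes 4 were called, all in this cluster and all higher in WT 6. Of all tested genes 0.715% were called higher in WT 6. HOXB8 held 116 and 86.3 in WT 4 and 1241 and 1418 in WT 6 (log2 difference −3.72 ± 0.21 (SE), adjusted p = 2.99e-05), and its KO values of 314 to 519.6 lay between the clones. HOXB4 held 149.5 and 173 in WT 4 and 481 and 414 in WT 6 (difference −1.47), HOXB6 108 and 138 in WT 4 and 279 and 277 in WT 6 (−1.18) and HOXB3 71.6 and 91.0 in WT 4 and 166 and 218 in WT 6 (−1.23). HOXB5 (−0.97) and HOXB9 (−0.72) had adjusted p = 0.0162 and 0.0446 but smaller differences. HOXB13, at the far end of the cluster, did not pass the test (0.31, adjusted p = 0.502). The annotated spans of HOXB3 and HOXB7 overlap those of their neighbours, so reads there cannot always be given to 1 gene. Calls were lost for HOXB3 and HOXB6 without any 1 of the 4 WT libraries (adjusted p from 0.0698 to 0.292), and for HOXB3 with KO 47 as the only KO clone (adjusted p = 0.0568).

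**Figure D3:**
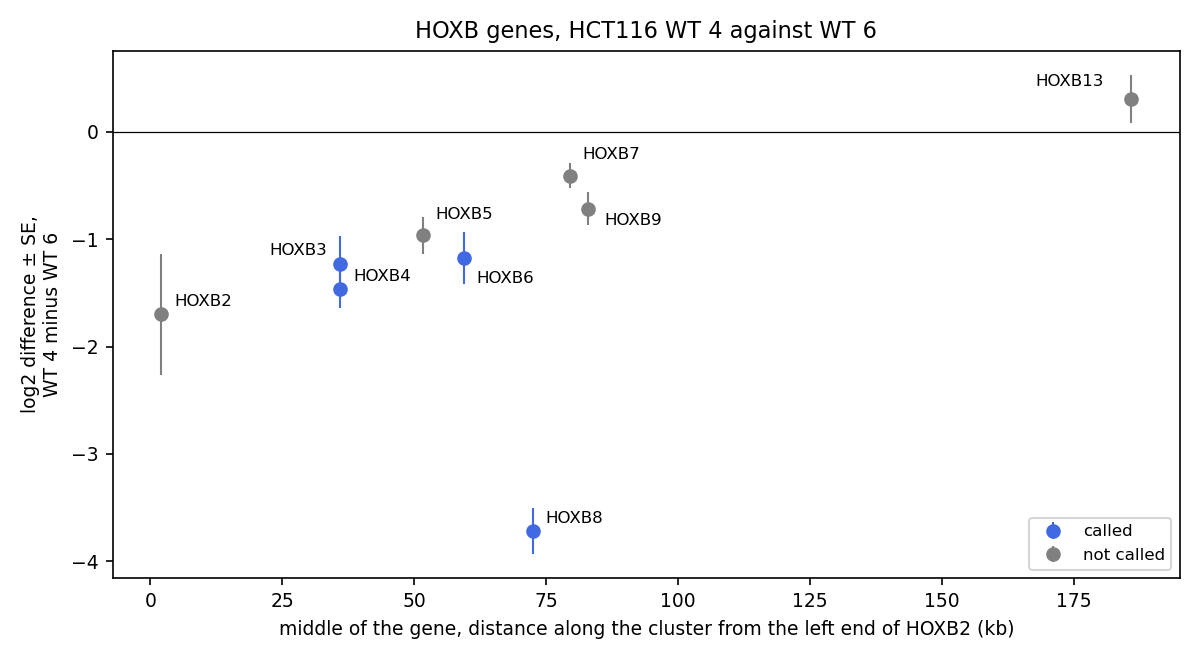
The log2 difference (WT 4 minus WT 6, bars are SE) of each tested HOXB gene is drawn at the middle of the gene, in kb from the left end of HOXB2. HOXB8 lies lowest at −3.72, its neighbours lie between −1.70 and −0.41, and HOXB13 lies at 0.31.

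Some called genes lay next to each other. On chromosome 10 (GRCh37), DKK1 at chr10:54074041-54077802, the antisense RNA PRKG1-AS1 that overlaps its start and the long noncoding RNA LNCAROD at chr10:54210634-54515269 were all higher in WT 6, with LNCAROD at 23.9 and 20.4 in WT 4 and 354 and 257 in WT 6 (difference −3.71) and PRKG1-AS1 at a difference of −1.41. BMP4 at chr14:54416454-54425479 and LINC02331 at chr14:54151857-54317600 were both higher in WT 4, the latter with 172 and 192 in WT 4 and 36.0 and 37.1 in WT 6 (difference 2.28), and with at most 15.1 in the KO libraries. Divergent neighbours on chromosome 18, FAM210A and RNMT, the latter encoding the enzyme that methylates the mRNA cap, were both higher in WT 6, with FAM210A at 1422 and 1371 in WT 4 and 4504 and 4783 in WT 6 (log2 difference −1.73 ± 0.12 (SE), adjusted p = 7.09e-05) and RNMT at a difference of −1.66. In KO cells FAM210A again took a low and a high level, at 1116 and 1047 in KO 44 and 3122 and 3568 in KO 47. BMI1, a Polycomb subunit, and the nearby lipid kinase gene PIP4K2A on chromosome 10 differed by −1.21 and −1.12. The library kit does not keep the strand, so reads from PRKG1-AS1 and DKK1 cannot be told apart where they overlap. Calls were lost for LINC02331 and PRKG1-AS1 without any 1 of the 4 WT libraries (adjusted p from 0.146 to 0.259), and for LINC02331 with a pseudocount of 0.1 (adjusted p = 0.0921) and PRKG1-AS1 with all 24 libraries (adjusted p = 0.179). PIP4K2A missed the limit on size without WT 4A (difference −0.99, adjusted p = 0.0336) and the threshold on adjusted p without WT 6B (0.0611). FAM210A, RNMT, PRKG1-AS1 and TRIM38, which lies in the histone region of chromosome 6, were named after their values were seen.

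Chromosome medians were small. They ran from −0.11 on chromosome 21 to 0.04 on chromosome 19, and those of 264 bins of 10 Mb with at least 20 tested genes from −0.26 to 0.20. The lowest were at 150 to 160 Mb of chromosome 2 (−0.26 over 24 genes), 0 to 10 Mb of chromosome 10 (−0.25 over 29 genes) and 20 to 30 Mb of chromosome 10 (−0.22 over 37 genes), which held 1, 1 and 2 calls. Their called genes were GALNT5, AKR1C3, BMI1 and PIP4K2A. The bins with the most calls held 9 each. They were 40 to 50 Mb of chromosome 17, which holds the HOXB cluster (193 genes, median −0.03), and 20 to 30 Mb of chromosome 6, which holds the histone genes (72 genes, median 0.20), and in the latter SOX4 and TRIM38 (difference 1.73) were the called genes that encode no histone.

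Interferon-stimulated genes were called 3 times, each time higher in WT 4, with a median of 0.30 over 31 tested genes. Of all tested genes 0.766% were called higher in WT 4. IFIT2, an antiviral RNA-binding protein, held 57.8 and 52.9 in WT 4 and 16.6 and 7.62 in WT 6 (difference 2.19). OASL held 192 and 138 in WT 4 and 47.1 and 48.5 in WT 6 (1.75), and BST2, which tethers virus particles, 72.5 and 68.7 in WT 4 and 8.32 and 14.3 in WT 6 (2.58). ISG15 and IFITM3 of the same list did not pass the test, with ISG15 at 3567 and 2828 in WT 4 and 3319 and 3819 in WT 6 and IFITM3 at 5724 and 4704 in WT 4 and 4287 and 3701 in WT 6. Of 16 genes of MHC class I presentation 0 were called in limma, edgeR or DESeq2, 5 had an unadjusted p under 0.05 in limma, and PSMB10 and ERAP2 were called with the replicate block. Of 13 tested NF-κB targets and chemokines only IL32 was called, and NFKB2 held 1968 and 1830.2 in WT 4 and 2161 and 2132 in WT 6. The threshold was missed by BST2 without any 1 of the 4 WT libraries (adjusted p from 0.0539 to 0.127), IFIT2 without WT 4A, WT 4B or WT 6B (adjusted p from 0.0828 to 0.159), and OASL without WT 4A, WT 6A or WT 6B (adjusted p from 0.0846 to 0.11). IFIT2 also missed it in limma voom (adjusted p = 0.0542).

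Genes of adhesion and matrix were called in both directions. Among 35 integrin, laminin and matrix genes these were LAMB1 and COL17A1 higher in WT 4 and ITGB8 and COL12A1 higher in WT 6, and LAMB1, a laminin chain, held 1372 and 1253 in WT 4 and 557 and 446 in WT 6 (difference 1.39). Among 38 epithelial junction and keratin genes the desmosomal cadherins DSC2 (1.02) and DSC3 (1.39) were higher in WT 4 and the keratins KRT80 (−1.97) and KRT81 (−1.68) higher in WT 6. KRT8 and KRT19 did not pass the test, with KRT19 at 29321 and 21775 in WT 4 and 26883 and 33612 in WT 6. Among 20 mesenchymal genes ACTA2, smooth muscle actin, was higher in WT 4 (1.41) and the transcription factor TWIST1 in WT 6 (−1.74), both at low counts of 9.17 to 57.5. Calls did not hold for DSC2, DSC3, KRT81, ACTA2 and TWIST1 without any 1 of the 4 WT libraries (adjusted p from 0.0509 to 0.249), and KRT80 without WT 6A (adjusted p = 0.0606). Nor did they hold for DSC2 with all 24 libraries (adjusted p = 0.108), DSC3 with all 24 libraries (adjusted p = 0.354), ACTA2 in limma voom (adjusted p = 0.0516), with no filter (adjusted p = 0.0615) and with KO 47 as the only KO clone (adjusted p = 0.0666). TWIST1 lost its call in edgeR with TMM (adjusted p = 0.0612), in edgeR with RLE (adjusted p = 0.0593), in limma voom (adjusted p = 0.09), with no filter (adjusted p = 0.0503) and with KO 47 as the only KO clone (adjusted p = 0.0638).

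Ligands and transporters differed too. TGFB2, a TGF-β ligand, held 7.34 and 11.1 in WT 4 and 117 and 142 in WT 6 (difference −3.69), and BMP4 was the other call among 29 genes of the TGF-β and BMP pathway. ABCB1, the drug efflux pump P-glycoprotein, held 4.59 and 3.71 in WT 4 and 49.0 and 68.5 in WT 6 (log2 difference −3.52 ± 0.32 (SE), adjusted p = 0.0004). AKR1C3, an aldo-keto reductase, held 54.1 and 28.8 in WT 4 and 1.85 and 1.90 in WT 6 and the transporter ABCC3 523 and 523 in WT 4 and 248 and 188 in WT 6, both higher in WT 4. Of 21 tested genes of drug metabolism and transport, WT 4 was higher at 2 calls and WT 6 at 1. Among 26 immediate early and MAPK feedback genes, FOSB (−1.51), DUSP5 (−1.08) and ETV1 (−1.31) were higher in WT 6. Of 32 genes of cholesterol and fatty acid synthesis only ACLY, which makes cytosolic acetyl-CoA, was called (−1.13). The test was no longer passed by TGFB2, ABCC3 and FOSB without any 1 of the 4 WT libraries (adjusted p from 0.0618 to 0.274), DUSP5 without WT 4B, WT 6A or WT 6B (adjusted p from 0.0611 to 0.107), ETV1 without WT 4A, WT 6A or WT 6B (adjusted p from 0.0882 to 0.148), and ACLY without WT 6B (adjusted p = 0.0693). Calls were lost too for TGFB2 with a pseudocount of 0.1 (adjusted p = 0.177) and AKR1C3 in limma voom (adjusted p = 0.059).

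In 11 tested stem cell genes BMI1, with 1256 and 1252 in WT 4 and 2681 and 3145 in WT 6, and TERT were called, both higher in WT 6. Of 20 imprinted genes only H19 was called, of 6 tested goblet and secretory genes only GALNT5 (−1.27), a transferase of mucin-type sugars. Lists with 0 calls in limma, in edgeR with TMM and in DESeq2 were those of mismatch repair (9 tested genes), cytosolic ribosomal proteins (45), hypoxia and glycolysis (30), the amino acid and ER stress response (23), metallothioneins (4), the EGF receptor family (11), absorptive enterocytes (10), cancer-testis genes (6), clustered protocadherins (3) and Eph receptors and ephrins (14). Limma gave 2, 1, 6, 7, 1, 0, 4, 0, 0 and 5 of these genes, in that order, an unadjusted p under 0.05. CA2, a carbonic anhydrase of enterocytes, came nearest to a call, with 788 and 656 in WT 4 and 1494 and 1273 in WT 6 (difference −0.94, adjusted p = 0.00764). It ran against its list, since 8 of the 10 tested absorptive enterocyte genes had a positive difference and their median was 0.43.

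**Figure D4:**
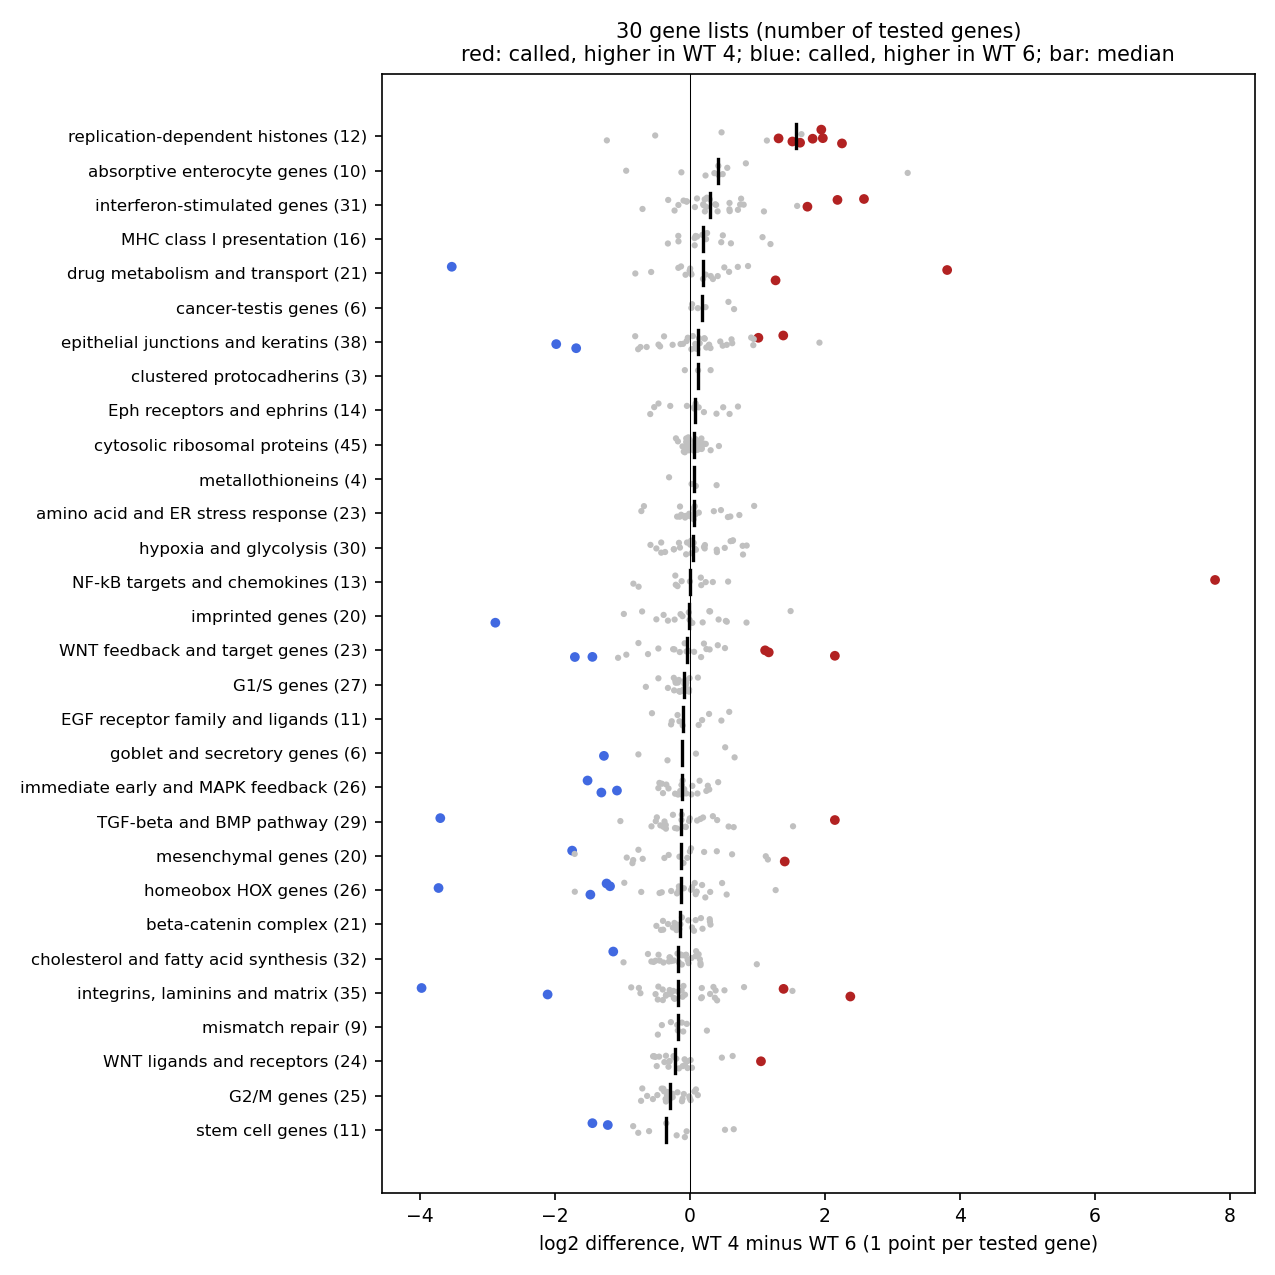
Rows are 30 gene lists, ordered by their median, with the number of tested genes in brackets, and each point is the log2 difference, WT 4 minus WT 6, of a gene. Red and blue points were called higher in WT 4 and in WT 6, grey points were not called, bars are medians, and the histone list stands highest at 1.58.

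KO clones sided with either WT clone, depending on the gene. On the log2 scale both KO clones were nearer to WT 4 at 87 of the 230 genes, both nearer to WT 6 at 80, and the KO clones were split at the other 63. At 126 genes both WT 4 libraries lay outside the range of the 6 other HCT116 libraries, and at 128 genes both WT 6 libraries did. These counts cover only called genes, which were picked for a difference between WT 4 and WT 6. They have no share over all tested genes beside them and only describe the calls.

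The same test between KO 44 and KO 47 called 540 of 15614 genes (3.46%). Of 219 genes called between the WT clones and tested there, 61 (27.9%) were also called between the KO clones, and these were 12.5% of the KO calls tested in both. Of the genes not called between the WT clones, 2.89% were called between the KO clones. Both comparisons rest on 1 estimate of the spread per gene, so that a gene with a small estimate is called more easily in each, and the overlap was not tested. KO 47A, which enters that estimate, held 35449 genes above 0 and KO 47B 22620. The standard deviation of the B minus A differences was 0.541 in KO 47, 0.416 in KO 44, 0.401 in WT 4 and 0.432 in WT 6. The effect of KO 47A on the KO calls was not tested. IL32 had a difference of 6.35 between KO 44 and KO 47, SLC6A20 of −1.52, ITGB8 of 2.87, STK32A of −3.27 and PROM2 of 1.43. STK32A, a kinase gene, held 42.2 and 35.3 in WT 4 and 6.47 and 0 in WT 6, and its call was lost without WT 4A, WT 4B or WT 6B (adjusted p from 0.140 to 0.259) and with a pseudocount of 0.1 (adjusted p = 0.104). Without KO 44A and without KO 44B, which share the estimate of the spread, calls were also lost for STK32A (0.0571 and 0.0574), H2BC21 (0.0507 and 0.0543), TWIST1 (0.0572 and 0.0526), ACTA2 (0.0703 and 0.0697) and HOXB3 (0.0585 and 0.0595), given as adjusted p. WT pairs of the other lines gave 1181 of 15102 genes (7.82%) between HT29 WT 11 and WT 40 and 312 of 16275 (1.92%) between SW480 WT 4 and WT 5. Counts of different lines depend on the spread between rounds in each, which had a median SE of 0.186 in the HCT116 WT pair, 0.291 in HT29 and 0.122 in SW480, and they were not tested against each other.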

How the data were processed

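Total RNA was captured with oligo-dT (TruSeq RNA v2, no strand information) and sequenced by the authors, who used STAR 2.7.5b for alignment to GRCh37 and featureCounts 2.0.1 for counting per gene. The values deposited by the authors are signal: gene counts divided by 1 DESeq2 size factor per library. Dividing by the smallest step gave whole reads for 100% of values (tolerance 0.01), and these counts entered edgeR and DESeq2 as alternatives. Mitochondrial genes were listed at 0. Further tables of the series hold the authors' own comparisons and were not used.

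A gene entered the test when 2 or more of the 4 WT libraries reached a value of 10, and the test was limma 3.58.1 (trend, robust) on log2(value + 1), with 1 mean per HCT116 clone over 8 libraries, and adjusted by Benjamini-Hochberg. Differences are WT 4 minus WT 6 on that scale, which understates those of low genes. Since the values are signal, the count tests were not the main result. The lists, rules and comparison were chosen with earlier results of these data known. Named genes were CTNNB1, the 12 largest differences in each direction among calls with a mean of at least 100 and clones that did not overlap, the called and most abundant members of each list, called genes of the 3 most shifted bins, and genes called in both HCT116 clone pairs. Y-linked genes were not named, and 1 of the largest differences and 1 gene list are not reported here.

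Rounds A and B, which the study describes as independent rounds, were checked for pairing: across 15535 genes, the B minus A differences of 2 clones correlated with r from 0.173 (WT 4 and WT 6) to 0.353, over 0.1 in 6 of 6 pairs, so a fit with the round as a block was printed where it changed a count. The study also calls the rounds biological replicates, but the labels do not say that libraries of a clone came from separate cultures. The p-values measure the spread between these libraries. Alternatives were edgeR 4.0.16 (TMM, RLE), DESeq2 1.42.0, limma voom, pseudocounts of 0.1 and 5, other filters, other sets of libraries and each library left out. Scripts were tested on simulated data. Positions come from GENCODE 44 lifted to GRCh37, with a position for 95.8% of 58051 identifiers. Of the genes of the lists, 14 had no match. Counting intervals cover counting error only.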

Additional observations from a re-analysis of the deposited data

How the results depend on the processing

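Each clone had 2 libraries, and without 1 of them the lone library is assumed to vary like those of the other clones. Leaving out 1 of the 8 HCT116 libraries gave 91 to 275 calls, with 51 to 150 higher in WT 4 and 40 to 125 higher in WT 6. With the replicate block limma called 438 genes (262 and 176) and edgeR 435 (265 and 170). All other alternatives stayed within 1.5 times the 230 genes, among them edgeR with 235, DESeq2 with 256, limma voom with 216, no filter with 230, a value of at least 10 in each library with 185 and only the 4 WT libraries with 309. Fits with the WT clones and only KO 44 or only KO 47, added after the data had been seen, called 274 and 217. Of 74 called genes followed, 0 changed sign under any alternative, and 140 of their values fell short of the threshold, 119 of them on leaving out a library. The block ended no call, added GPR137C, H4C5, PSMB10, ERAP2, SNAI2, LOX, CEACAM1, DIRAS3, MMP7 and CHRD to the calls of the lists described here, and H2BC4 and H2BC26 to those of all histone genes, and changed no other call of these genes.

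Chromosome medians had a lowest value of −0.071 with TMM factors, −0.15 with a mean of at least 100 and −0.15 for protein coding genes, and without 1 WT library the lowest ran from −0.121 to −0.110 and the highest from 0.021 to 0.110. For the bin at 20 to 30 Mb of chromosome 6 the median was 0.14 with a mean of at least 100, and 0.180 to 0.244 without 1 WT library. The depth, between 27257568 and 29068378 reads, limits what can be said of genes with a few reads in 1 clone. The cause of these changes was not tested.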
